A study of Mus musculus with 6 samples.

Results

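The cytosolic ribosomal protein genes encode the proteins of the cytoplasmic ribosome, and their transcript levels were compared between retinas of *Yap* conditional knockout mice (*Yap* cKO) and control mice. Members were the protein-coding genes of the count table whose symbol is Rpl or Rps followed by a number, together with *Rpsa*, *Rplp0*, *Rplp1* and *Rplp2*, without the *Rps6k* kinases and without symbols holding "-ps". This gave 86 of the 55421 genes listed, assigned by symbol as 52 of the large subunit (Rpl) and 34 of the small subunit (Rps and *Rpsa*). Of these, 83 passed the filter on low counts and were tested, and *Rpl10l*, *Rpl39l* and *Rpl3l* did not pass. The symbol rule also took in *Rps19bp1*, which encodes a binding partner of the *Rps19* protein, and *Rpl7l1*, a paralogue of *Rpl7* that acts in ribosome assembly. A further 7 genes matched by symbol but are annotated as pseudogenes and were left out.

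A ribosome is built from ribosomal RNA and one copy of most of these proteins, so cells make the proteins in near-equal numbers. Their mRNAs are short, abundant and carry a run of pyrimidines at the very 5′ end, the TOP motif, through which the mTOR and LARP1 pathway sets how strongly they are translated. In the retina, photoreceptors renew their outer segments each day and depend on sustained protein synthesis. YAP is a transcriptional co-activator of the Hippo pathway that binds DNA through the TEAD factors, and in the adult retina it is found in Müller glia.

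Both groups of mice were *Yap* fl/fl and received 4-hydroxytamoxifen (4OH-T) at postnatal days 10 and 14, and only the *Yap* cKO mice also carried *Rax-CreERT2*. The Rax promoter limits the recombinase to Müller glia and the non-pigmented epithelium of the ciliary body, whereas the RNA came from whole retinas at 2 months of age. There were 3 retinas of each group, namely YR612, YR613, YR615 (control) and YR711, YR713, YR714 (*Yap* cKO), sequenced as stranded libraries of polyadenylated RNA. Values by retina are given below in that order.

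The genotype was visible in the data. *Yap1* stood at 9.48, 9.52 and 9.83 TPM (a level scaled to library size and exonic length) in the controls, against 3.99, 3.76 and 3.94 TPM after deletion. The log2 fold change was -1.36 with a standard error of 0.0928 and an adjusted p of 0.000282 in edgeR's quasi-likelihood test. In what follows, log2 fold changes are given ± standard error from that fit, and means in TPM ± SD over the 3 retinas of a group. Between 24261799 and 35067068 fragments per retina were assigned to genes. The summed level of Müller glia markers (*Rlbp1*, *Glul*, *Slc1a3*, *Aqp4* and *Sox9*) was high in every retina. It was 4008 to 4308 TPM in control and 3498 to 4024 TPM in *Yap* cKO retinas, most of it from *Glul*. In such bulk tissue, fewer cells of a type and less RNA per cell cannot be told apart.

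The start of transcription is shown for 8 members because it carries the feature that names their mRNA class. Windows of 300 bases around the annotated start (250 before it and 50 from it) were found in RefSeq (GRCm38.p6) for 66 of the 86 members. Each line gives 15 bases before and 15 bases from the start, 5′ to 3′ on the gene's strand, with capitals for a run of at least 6 pyrimidines (C or T) that reaches within 5 bases of the start. *Rpl14* and *Rplp2* are among the 5 members with the lowest fold changes, *Rps6* is the substrate of the S6 kinases, *Rps21* is among the 5 most abundant, *Rpl31*, *Rpl15* and *Rps27* are among the 5 with the highest fold changes, and *Rps28*, which had the lowest fold change of all, has no such run.
Rpl14: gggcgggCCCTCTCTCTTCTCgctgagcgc
Rplp2: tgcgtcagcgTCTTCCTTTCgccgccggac
Rps6: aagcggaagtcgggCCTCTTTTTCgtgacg
Rps21: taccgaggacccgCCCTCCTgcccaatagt
Rpl31: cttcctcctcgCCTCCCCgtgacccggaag
Rpl15: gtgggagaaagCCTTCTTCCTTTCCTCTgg
Rps27: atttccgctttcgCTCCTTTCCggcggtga
Rps28: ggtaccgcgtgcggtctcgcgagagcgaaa
The coordinates of these lines are chr9:120571502-120571531 (plus) for *Rpl14*, chr7:141447636-141447665 (plus) for *Rplp2*, chr4:86857353-86857382 (minus) for *Rps6*, chr2:180257364-180257393 (plus) for *Rps21*, chr1:39367836-39367865 (plus) for *Rpl31*, chr14:18270972-18271001 (minus) for *Rpl15*, chr3:90213634-90213663 (minus) for *Rps27* and chr17:33824548-33824577 (minus) for *Rps28*. Among the members with a window, 30 of 66 (45.5%) had the pyrimidine run, against 20.7% of 16529 windows of protein-coding genes. The RefSeq start lay within 5 bases of the principal start in the GENCODE annotation for 23 of the 66, so the window can miss the start that is used.

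Other motifs were searched on both strands of the same windows. The ETS core CGGAAG was in 43 windows of members (65.2%) against 22.4% of all windows. The YY1 core AAGATGG was in 9 (13.6%) against 6.46%, and the TATA box letters TATAAA were in 6 (9.09%) against 13%. The TEAD core GGAATG was in 5 (7.58%) against 13.1%, and *Rps27* was one of these. Fold changes were also split by 4 of these features. The median log2 fold change was -0.21 over 29 tested members with the pyrimidine run and -0.19 over 34 without it. It was -0.20 over 42 tested members with the ETS core and -0.18 over 21 without, and -0.18 over 5 with the TEAD core against -0.20 over 58 without. For the YY1 core it was -0.17 over 9 with it and -0.21 over 54 without. A match describes letters in the window only.

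Ribosomal protein transcripts were a little lower in *Yap* cKO than in control retinas, almost without exception in direction and without any single gene passing the test. The fitted log2 fold change was below 0 in 82 of the 83 tested members, where 49.7% of all tested genes were below 0. The median was -0.21 on the log2 scale, a ratio of 0.866, and the median over all 16575 tested genes was 0.00. Values ran from -0.44 (*Rps28*) to 0.05 (*Rpl31*), with a median standard error of 0.102. Together, the 86 members took 1.23%, 1.01% and 1.22% of all counts in the control retinas and 0.899%, 0.947% and 1.10% in the *Yap* cKO retinas (1.15% ± 0.127 and 0.983% ± 0.107, SD, n = 3 each). One control retina lay below one *Yap* cKO retina, so these shares overlap between the groups.

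No member passed an adjusted p of 0.05 in either direction in edgeR's quasi-likelihood test (0 of 83), where 1.49% of all tested genes did (0.501% higher and 0.989% lower) and 1.36% of other genes of like exonic length passed as lower. Without adjustment, 27 members had a lower level in *Yap* cKO at p under 0.05 and 0 a higher one, against 9.42% and 12% of all tested genes, and 14.2% of genes of like exonic length were lower. Among other tools, with adjustment, DESeq2 called 2 members lower (*Rpl14* and *Rps24*), edgeR's likelihood ratio test 1 (*Rpl14*) and limma-voom 0. That was 2.41%, 1.2% and 0% of tested members, where 2.23%, 2.82% and 1.12% of all tested genes were called lower. Among genes of like exonic length, 3.07%, 4.06% and 1.56% were called lower. In either direction, these tools called 5.38%, 6.18% and 1.64% of all tested genes. No member met the study's further criteria of a fold change of at least 1.5 and at least 5 TPM, which 0.796% of tested genes met (0.211% higher and 0.585% lower).

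**Figure D1:**
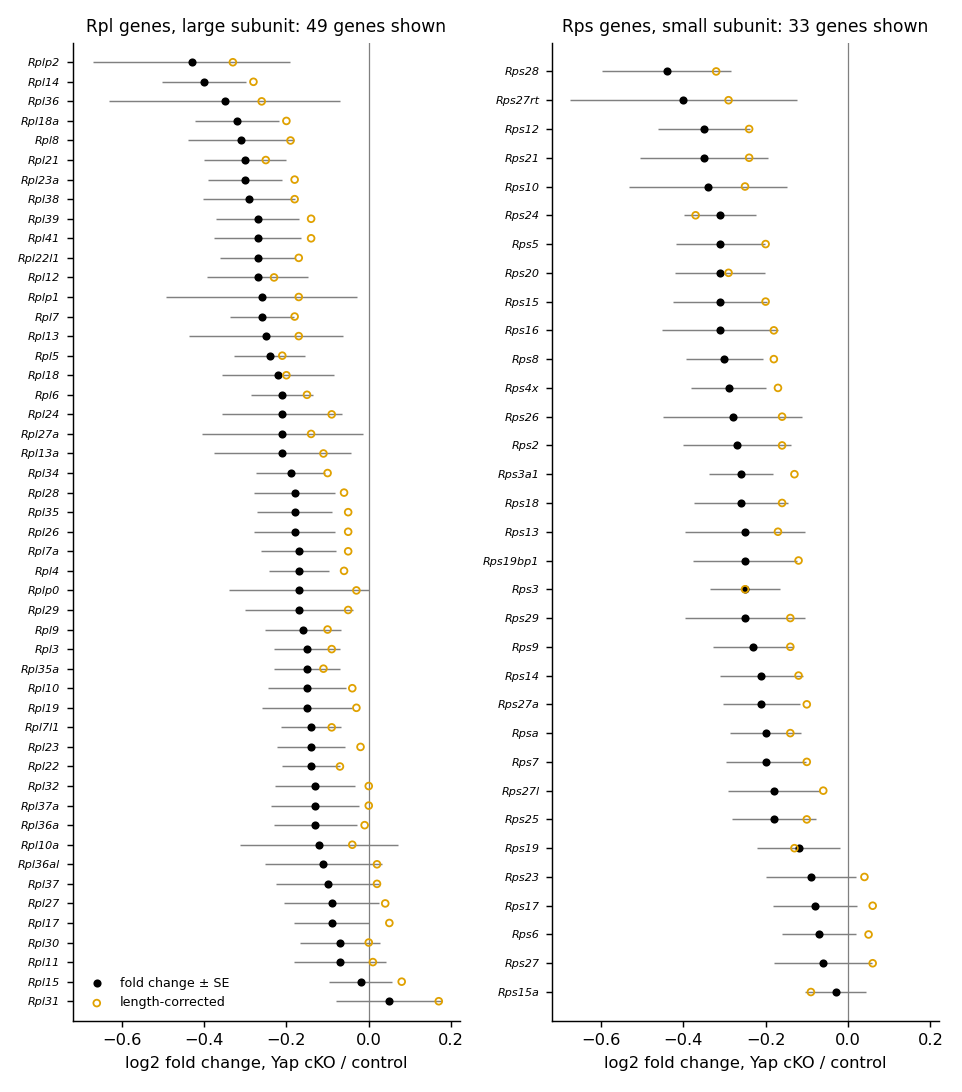
Log2 fold change (horizontal axis, Yap cKO over control) of 82 tested members, Rpl genes on the left and Rps genes on the right, as black points with standard errors from edgeR's fit and as open circles after correction for exonic length. Black points lie from -0.44 to 0.05, with Rpl31 alone above 0, and most open circles lie nearer to 0 than the black points.

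Over 49 members assigned to the large subunit by symbol, *Rpl7l1* included, the median log2 fold change was -0.18, with 48 below 0. Over 34 assigned to the small subunit, *Rps19bp1* included, it was -0.25, with 34 below 0. Fold change bore little relation to level, exonic length or GC content among members (Spearman's correlation of -0.0374, 0.0989 and -0.0948 over 83 genes that share the same 6 libraries).

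The retinas of a group did not move as one. Each value was set against the gene's own mean over the 6 retinas, on the log2 CPM scale (counts scaled to library size). The median of the 83 members was 0.20, -0.07 and 0.18 in the control retinas and -0.19, -0.13 and 0.04 in the *Yap* cKO retinas. Control retina YR613 thus sat with the lower retinas and *Yap* cKO retina YR714 with the higher ones. In YR612 and in YR615, 83 of 83 members lay above their own mean, and in YR613 only 15 did. In YR711, 0 members lay above their own mean and in YR713 only 2 did, whereas in YR714 57 did.

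Member by member, YR612 was the highest of the 6 retinas for 58 genes and YR615 for 20. YR711 was the lowest for 57, YR713 for 15 and YR613 for 9. Levels were higher in *Yap* cKO retina YR714 than in control retina YR613 for 66 of the 83 members. The median gap between YR612 and YR613, both controls, was 0.29 on the log2 scale, and that between YR714 and YR711, both *Yap* cKO, was 0.24. Both gaps are larger than the size of the median fold change between the groups. All 3 *Yap* cKO retinas lay below all 3 control retinas for 16 members, where 12.4% of all tested genes and 17.3% of other genes of like exonic length did so, and for 0 members above them, where 12.3% of all tested genes did. The share of members without overlap was thus near that of genes of like length.

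**Figure D2:**
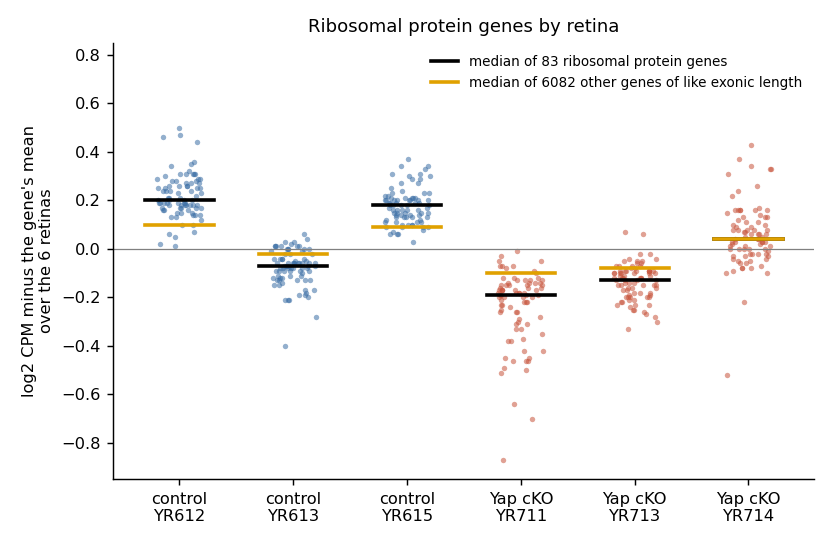
Each point is 1 of the 83 members in 1 retina, as log2 CPM minus the gene's mean over the 6 retinas (vertical axis), with control retinas in blue and Yap cKO retinas in red. Black bars are member medians (0.20, -0.07, 0.18, -0.19, -0.13 and 0.04 from left to right) and yellow bars the medians of 6082 other genes of like exonic length (0.10, -0.02, 0.09, -0.10, -0.08 and 0.04), which follow the same order.

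Which retinas were included set how many members were called. Without control YR613, 15 members passed as lower at an adjusted p of 0.05 (18.1% of members, 2.74% of all tested genes and 4.37% of genes of like exonic length) and the median log2 fold change was -0.29. Without *Yap* cKO YR714, 12 passed (14.5%, 2.75% and 4.31%) with a median of -0.28. Of these, 2 met the study's further criteria, and the share of all tested genes that met them in that fit was not counted. Leaving out any of the other 4 retinas gave 0 calls and medians between -0.18 and -0.15. In those fits few genes were called lower at all. The shares were 0.25% to 0.651% of all tested genes and 0.29% to 0.925% of genes of like exonic length. At least 79 members were below 0 whichever retina was left out.

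Genes of short exonic length had a median fold change below 0, and ribosomal protein genes are short. Whether length accounts for the member difference was not tested. Members had a median merged exonic length of 1736 bases (374 to 6270), against 4132 bases over all tested genes. Across all tested genes, log2 fold change was higher for genes of greater exonic length (Spearman's correlation of 0.391 over 16575 genes of the same 6 libraries). Other tested genes of like exonic length, between 851 and 3520 bases, numbered 6082 and had a median log2 fold change of -0.10, with 68.5% below 0. The member median was lower than theirs by a log2 difference of -0.11. With 1 retina left out, this difference lay between -0.15 (without YR613) and -0.07 (without YR711). Restricted to 1221 genes of like length and like level, the comparison median was also -0.10 (a comparison chosen after seeing the data).

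The merged exonic length counts every annotated exon, and for ribosomal protein genes it is much longer than the main mRNA, whose median length was 751 bases. Set against 1599 genes with a principal transcript of like length (485 to 1357 bases), the comparison median was -0.18 and the difference shrank to -0.03, a comparison also added after seeing the data. In the shortest decile of principal transcripts, which held 71 of the members, the member median was -0.21 and that of the 1414 other genes was -0.18. In the longest decile, the other genes had a median of 0.24. Correction of every retina for exonic length left a member median of -0.12 with 70 members below 0, and correction for principal transcript length left -0.08 with 64 below 0. Under both corrections 0 members were called, where 2.77% and 2.31% of all tested genes were called in either direction. The lowest adjusted p values of members were 0.0559 and 0.0582 in the quasi-likelihood test.

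The length relation also followed the single retinas. Spearman's correlation between exonic length and the deviation from the gene's mean over all tested genes was -0.413, 0.172 and -0.405 in the control retinas and 0.396, 0.385 and -0.151 in the *Yap* cKO retinas. The 3 retinas with a negative correlation, YR612, YR615 and YR714, were those where the member median was above 0. After correction for exonic length, the member medians were 0.12, -0.06 and 0.11 in control and -0.08, -0.06 and 0.00 in *Yap* cKO retinas, so the span between retinas narrowed and YR613 came level with YR713.

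**Figure D3:**
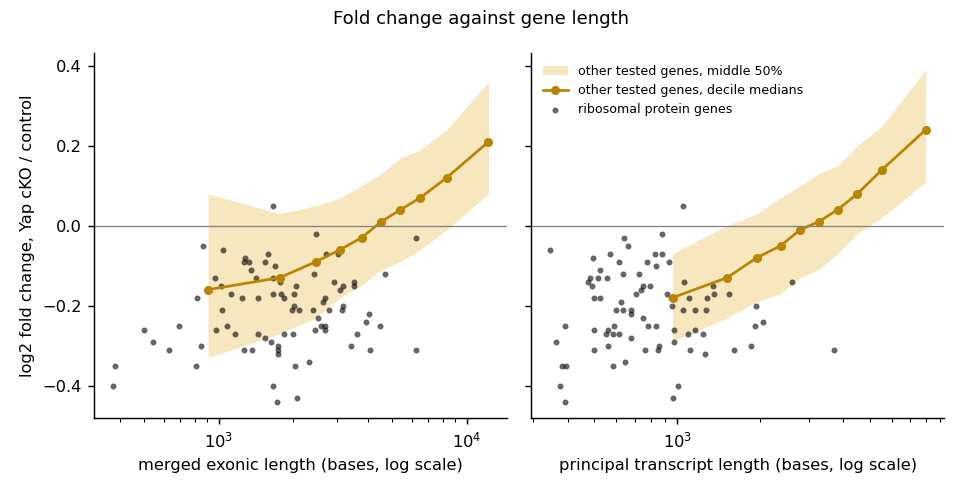
Log2 fold change (vertical axis) against merged exonic length (left) and principal transcript length (right), both in bases on log axes, for the 83 members (black points) and for the other tested genes (yellow line, decile medians, and band, middle 50%). Members lie mostly under the yellow line on the left and around its left end on the right, where the shortest decile of other genes has a median of -0.18.

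Among single members, *Rpl14* had the smallest adjusted p. This large-subunit gene (chromosome 9, 120571444 to 120574654, GRCm38) was at 420, 357 and 394 TPM in the control retinas, against 289, 304 and 331 TPM in the *Yap* cKO ones. The groups did not overlap, and the gap between the lowest control and the highest *Yap* cKO retina was small beside the range within each group. Its log2 fold change was -0.40 ± 0.101, with an adjusted p of 0.0861 in the quasi-likelihood test. *Rps24*, a small-subunit gene that is mutated in Diamond-Blackfan anaemia and was named here after its values were seen, was at 122, 112 and 124 TPM in the control retinas, against 100, 94.8 and 107 TPM in the *Yap* cKO ones, again without overlap (log2 fold change -0.31 ± 0.0878, adjusted p = 0.109). *Rps12*, of the small subunit, was at 200, 176 and 190 TPM against 135, 157 and 171 TPM, with every *Yap* cKO retina below every control one (-0.35 ± 0.112, adjusted p = 0.136). Its 24 named pseudogenes make its count uncertain, since fragments that map to several places were not counted.

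*Rps28* had the lowest fold change of all members but did not separate the groups. This small-subunit gene (chromosome 17, 33819027 to 33824562) was at 51.6, 42.0 and 44.4 TPM in the control retinas, against 29.3, 34.2 and 42.4 TPM in the *Yap* cKO ones. The highest *Yap* cKO retina, YR714, exceeded control YR613, and the fold change was -0.44 ± 0.157 with an adjusted p of 0.165 in the quasi-likelihood test. *Rps27rt*, a retrogene of *Rps27*, was at 10.5, 7.80 and 8.00 TPM in the control retinas, against 7.12, 8.30 and 5.09 TPM in the *Yap* cKO ones, and had the lowest level of the tested members. It rested on 13 to 27 counts per retina, and its fold change of -0.40 ± 0.276 had an adjusted p of 0.415.

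Genes of the stalk, which recruits elongation factors to the ribosome, varied widely between retinas of one group, and *Rplp1* and *Rplp2* were among the 4 members with the widest range. *Rplp2* was at 219, 156 and 215 TPM in the control retinas, against 107, 138 and 212 TPM in the *Yap* cKO ones. YR714 thus reached the level of the highest controls while YR711 was the lowest, and the fold change of -0.43 ± 0.239 had an adjusted p of 0.324 in the quasi-likelihood test. *Rplp1*, the most abundant member, also had its lowest value in YR711 and its highest in YR714, at 2192, 1589 and 2224 TPM against 1204, 1653 and 2348 TPM (-0.26 ± 0.232, adjusted p = 0.524). *Rplp0* had an order of its own at 456, 298 and 470 TPM against 389, 416 and 332 TPM. Its *Yap* cKO retinas all lay between the control retinas, and its fold change was -0.17 ± 0.170 (adjusted p = 0.574). The range over the 6 retinas was 1.15 for *Rplp2*, 1.01 for *Rplp1* and 0.70 for *Rplp0* on the log2 scale, where the member median was 0.43 and the median of genes of like exonic length 0.54. *Rpl36*, named here after its values were seen, had the widest range of all, at 1.34.

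**Figure D4:**
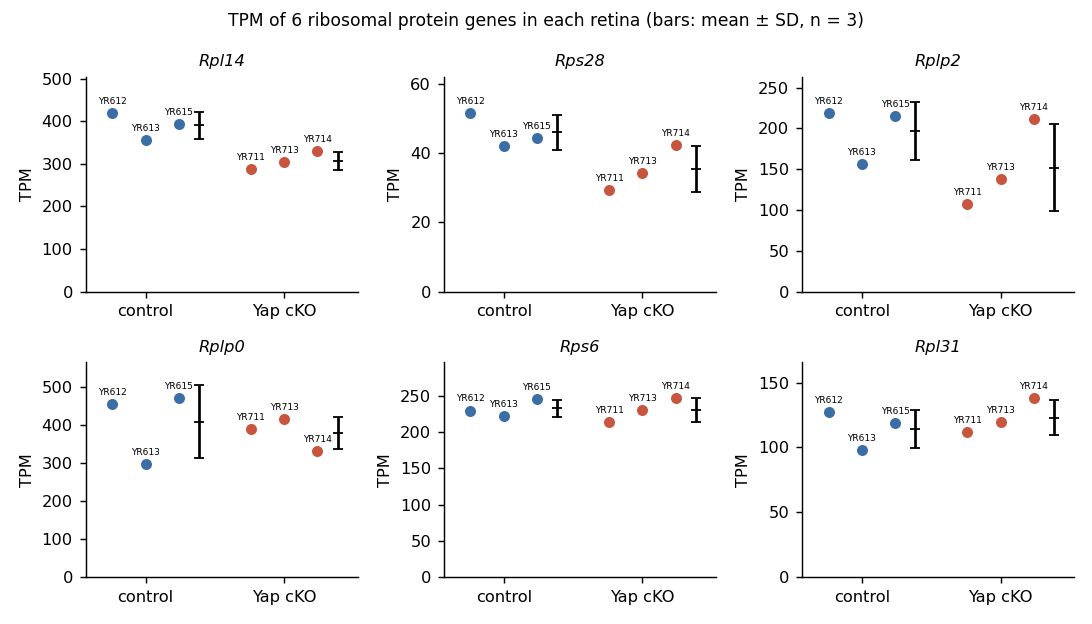
Level in TPM (vertical axes from 0) of 6 members in each labelled retina, control in blue and Yap cKO in red, with the mean and SD of 3 retinas beside each group. Only for Rpl14 do the groups not overlap, and in Rps28 and Rplp2 the Yap cKO retina YR714 sits at control levels.

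At the other end were members with nearly level values. *Rpl31*, which lies by the peptide exit of the large subunit, was the only member with a fold change above 0, at 127, 98.2 and 119 TPM in the control retinas, against 112, 120 and 138 TPM in the *Yap* cKO ones (0.05 ± 0.129, adjusted p = 0.859). Its sign turned to -0.07 without YR613, to -0.06 without YR714 and to -0.01 with sex as a covariate. *Rpl15*, of the large subunit, was at 157, 156 and 172 TPM against 164, 165 and 169 TPM (-0.02 ± 0.0771, adjusted p = 0.920). *Rps15a*, of the small subunit, had the narrowest range of all members, 0.15 on the log2 scale, at 87.2, 87.5 and 94.8 TPM against 93.3, 88.9 and 92.4 TPM (-0.03 ± 0.0741). On the TPM scale the median of all tested genes was 0.06 higher (log2) in *Yap* cKO retinas, so that a gene such as *Rps27*, with 461 TPM in both groups, had a fitted fold change of -0.06. The mean TPM was lower in *Yap* cKO retinas for 79 of the 83 tested members, with a median log2 ratio of -0.15.

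Among the most abundant members, too, none passed the test. Tested members ranged from 7.81 to 1868 TPM with a median of 192, and 64 exceeded 100 TPM. *Rps15*, at the head of the small subunit, was at 2069, 1826 and 2107 TPM in the control retinas, against 1502, 1652 and 1902 TPM in the *Yap* cKO ones (-0.31 ± 0.114, adjusted p = 0.176 in the quasi-likelihood test). *Rpl4*, which lines the exit tunnel, was at 1253, 1207 and 1262 TPM against 1159, 1123 and 1156 TPM. Its groups did not overlap, and its difference was small (-0.17 ± 0.0727, adjusted p = 0.213). *Rpl8*, near the peptidyl transferase centre, was at 1255, 1047 and 1225 TPM against 872, 937 and 1145 TPM (-0.31 ± 0.129, adjusted p = 0.204), and *Rps21* at 895, 717 and 922 TPM against 571, 676 and 829 TPM (-0.35 ± 0.155, adjusted p = 0.236). In both, YR714 exceeded YR613.

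Members known for a role outside the ribosome, or for a regulated one within it, did not pass the test either. *Rps6*, the substrate of the S6 kinases, was at 230, 222 and 246 TPM in the control retinas, against 214, 231 and 247 TPM in the *Yap* cKO ones (-0.07 ± 0.0898), so the groups overlapped fully. *Rpl5* and *Rpl11*, which with the 5S RNA bind the p53 regulator Mdm2, did not have the same pattern. *Rpl5* was at 92.5, 83.7 and 96.6 TPM against 80.4, 78.8 and 81.5 TPM (-0.24 ± 0.0862, adjusted p = 0.165 in the quasi-likelihood test), without overlap. *Rpl11* was at 148, 130 and 146 TPM against 127, 135 and 157 TPM (-0.07 ± 0.111), with overlap. The difference between their fold changes was not tested. *Rps3*, of the mRNA entry channel, had a mean of 444 ± 23.4 TPM in the controls, against 389 ± 17.1 TPM in *Yap* cKO retinas, without overlap (-0.25 ± 0.0840, adjusted p = 0.148). *Rpsa*, also known as the laminin receptor precursor, had 317 ± 16.3 and 288 ± 15.7 TPM (-0.20 ± 0.0854), and *Rps27a*, made as a fusion with ubiquitin, 329 ± 25.9 and 297 ± 13.9 TPM (-0.21 ± 0.0946). *Rps19*, the gene most often mutated in Diamond-Blackfan anaemia, had 79.3 ± 6.72 and 75.9 ± 4.78 TPM (-0.12 ± 0.101). *Rpl13a*, often used as a reference gene in RT-qPCR, had 48.7 ± 5.20 and 43.9 ± 10.2 TPM (-0.21 ± 0.167), with a log2 range of 0.73 over the 6 retinas.

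Of several paralogue pairs, the retina expressed mainly 1 copy. The muscle gene *Rpl3l* had 1 to 5 counts per retina, the testis genes *Rpl10l* and *Rpl39l* had 0 to 1 and 0 to 3, and these 3 were the untested members. Their partners were abundant. *Rpl3* was at 334 ± 15.5 TPM in the controls, against 315 ± 9.49 TPM (-0.15 ± 0.0813), and *Rpl10* at 161 ± 11.4 and 151 ± 7.69 TPM (-0.15 ± 0.0943). *Rpl39* was at 130, 114 and 144 TPM against 113, 110 and 112 TPM, and its groups did not overlap (-0.27 ± 0.0999, adjusted p = 0.171 in the quasi-likelihood test). Both copies of the *Rpl22* pair were expressed. *Rpl22* was at 192, 187 and 189 TPM against 181, 178 and 178 TPM (-0.14 ± 0.0710, adjusted p = 0.284), and *Rpl22l1* at 96.7, 94.8 and 111 TPM against 85.9, 83.0 and 91.2 TPM (-0.27 ± 0.0907, adjusted p = 0.142). In neither did the groups overlap.

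*Rpl7* was at 517, 476 and 509 TPM in the control retinas, against 434, 428 and 442 TPM in the *Yap* cKO ones, without overlap (-0.26 ± 0.0781, adjusted p = 0.121 in the quasi-likelihood test). Its paralogue *Rpl7l1* was at 62.6 ± 3.12 and 59.2 ± 2.49 TPM (-0.14 ± 0.0734). *Rps27l*, a paralogue of *Rps27* known as a p53 target, was at 55.6 ± 4.64 and 51.2 ± 1.05 TPM (-0.18 ± 0.111). *Rpl36a*, on chromosome X, was at 82.9 ± 6.02 and 78.8 ± 5.65 TPM (-0.13 ± 0.101), and *Rpl36al*, its intronless copy, at 18.2 ± 1.18 and 17.6 ± 1.99 TPM (-0.11 ± 0.141). The X-linked *Rps4x* was at 517, 460 and 506 TPM against 408, 408 and 448 TPM, and its groups did not overlap (-0.29 ± 0.0907, adjusted p = 0.130). *Rpl26*, of the large subunit, was at 458 ± 38.0 and 422 ± 23.2 TPM (-0.18 ± 0.0985). *Rps10* was low for a ribosomal protein gene, at 19.0 ± 2.18 and 15.6 ± 4.01 TPM (-0.34 ± 0.191). Its exons overlap on the same strand with an annotated read-through gene, RPS10-NUDT3, and fragments that fall on both were not counted. In all, 28 members share exon sequence with another gene on their strand, mostly small nucleolar RNAs, and 60 have at least 1 pseudogene named after them (298 such pseudogenes in all), so their levels are uncertain.

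Other genes of the translation machinery were read from lists in the same fit. Of the ribosomal genes outside the symbol rule, *Fau* had a log2 fold change of -0.37 (adjusted p = 0.269 in the quasi-likelihood test) and *Rack1* of -0.19 (adjusted p = 0.263). For these lists, 1.49% of all tested genes were called and 49.7% were below 0, as were 68.5% of genes with exonic lengths like the members'. Mitochondrial ribosomal proteins, which serve a separate ribosome, had 0 of 77 called, 74 below 0 and a median of -0.15. Their median exonic length was 2533 bases, against 4132 over all tested genes. Elongation factors and other mRNAs of the TOP class had 0 of 19 called, 17 below 0 and a median of -0.17, with *Eef1a1* at -0.16 ± 0.0723 and *Eef2* at -0.11 ± 0.0772. Ribosome biogenesis genes had 0 of 25 called, 18 below 0 and a median of -0.06, and 1 of them, *Rps19bp1* (-0.25), is also among the 83 tested members. Genes of the mTOR, LARP and *Myc* pathways, which control ribosome production, had 0 of 15 called, 5 below 0 and a median of 0.14, from -0.06 in *Eif4ebp1* and *Mycn* to 0.29 in *Mtor*. This last list is also the longest, with a median exonic length of 6829 bases against 1736 for the members.

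Summed marker levels of some other cell types differed between the groups, and those of others overlapped. Of 8 genes of the ciliary body and fibroblasts, 7 were tested and 5 passed as lower (*Optc*, *Col1a2*, *Slc26a4*, *Ltbp2* and *Fbln1*), and their summed level was 112 to 142 TPM in control and 6.44 to 28.8 TPM in *Yap* cKO retinas. Pigment epithelium markers had 1 of 6 called lower (*Pmel*) and a summed level of 555 to 590 TPM against 170 to 547 TPM. Of 5 bipolar markers, 1 passed as higher (*Grm6*). Red blood cell markers had 0 of 4 called and a summed level of 42.8 to 77.1 TPM against 30.9 to 46.2 TPM. Lens crystallins were too low to test, at summed levels of 0.675 to 11.3 TPM and 0.0727 to 2.34 TPM. Lists for Müller glia, ganglion cells, amacrine cells, microglia and endothelium had 0 genes called, with medians of -0.21, 0.02, 0.14, 0.14 and -0.02. No marker gene was at 0 in all retinas. The part of these cells in the ribosomal protein levels was not tested.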

How the data were processed

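Gene counts came from 6 retinas of 2-month-old mice, 3 control and 3 *Yap* cKO, grouped by their labels. The authors aligned paired reads of 40 bases to GRCm38 with STAR 2.7.3a and counted fragments per gene on exons with featureCounts 1.6.2 (strand setting 2). The deposited values are unnormalized counts with a column for each retina, next to each gene's merged exonic length. The table's header names annotation release 98 and the study's methods release 94. Unless told otherwise, featureCounts leaves out a fragment that falls on more than one gene or aligns to more than one place. Symbols came from GENCODE M21 by gene identifier (55240 of 55421 matched), and promoter windows from RefSeq.

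With R 4.3.3 and edgeR 4.0.16, the whole table was filtered with filterByExpr, scaled by TMM and tested with the quasi-likelihood test (Benjamini-Hochberg over 16575 genes, adjusted p of at most 0.05). Standard errors came from the log2 fold change and its F statistic. TPM was computed from counts and exonic lengths. Genes of like length were other tested genes between the members' 10th and 90th percentile. Length correction fitted a loess curve (span 0.3) in each retina and entered as offsets. Genes were named by rule, namely the 5 lowest and 5 highest log2 fold changes, the 5 highest and 3 lowest levels, paralogue pairs, and members with known special roles. A member named by this rule, and some genes of the lists, are not reported here. Members and lists were chosen with earlier results of these data known, so lists were given no test. Alternatives were other size factors, DESeq2 1.42.0, limma 3.58.1 (voom), the likelihood ratio test, no filter, corrections for length and GC content, sex read from *Xist*, and each retina left out. The steps were tested on simulated data. Each retina carries its own animal code, and the study names 3 independent biological replicates. The p-values thus set the difference between groups against the spread between retinas within groups. An exact permutation test of 3 against 3 cannot go below 0.1.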

Additional observations from a re-analysis of the deposited data

How the results depend on the processing

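The median log2 fold change of the ribosomal protein genes lay between -0.29 and -0.08 under all alternatives run, and no member passed as higher under any of them. The number of members called lower at an adjusted p of 0.05 was 0 in edgeR's quasi-likelihood test. There, 0.989% of all tested genes and 1.36% of genes of like exonic length were called lower. At 0.1 in that test, 1 member passed, and the share of all tested genes at that limit was not counted. At 0.05, DESeq2 called 2 (2.41% of members, 2.23% of all tested genes and 3.07% of genes of like exonic length). The likelihood ratio test called 1 (1.2%, 2.82% and 4.06%), and so did GC correction (1.2%, 1.71% and 2.29%). Without a filter on low counts the number was 17 of 86 (19.8%, 2.51% and 3.25%). It ranged from 0 to 15 when each retina was left out, the highest being 15 without YR613, a control, and 12 without YR714, a *Yap* cKO retina. The number that also met the fold change and TPM criteria ranged from 0 to 2. The share of all tested genes that met them was counted in the main fit only (0.796%). Without the filter, 30129 genes were tested and 2.51% were called lower. The cause of these moves was not tested. The difference from genes of like exonic length, -0.11, ranged from -0.15 to -0.07 when each retina was left out, and became -0.16 over the members' whole length range, -0.06 with correction for principal transcript length and -0.03 against genes of like principal transcript length, of which the last 2 were chosen after seeing the data.

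Of 612 alternative values for 36 tested genes named by rule, 567 kept their direction and side of the threshold, 25 newly passed it and 20 changed sign. In the main fit 0 members had passed, so none could cease to pass. The new passes came with DESeq2, the likelihood ratio test, GC correction, no filter, and without YR613 or YR714. These settings called 3.83% to 8.84% of all tested genes in either direction, against 1.49% in the main fit. All that changed sign lay close to 0. With correction for exonic length, values were 0.08 for *Rpl15*, 0.06 for *Rps27*, 0.02 for *Rpl36al*, 0.05 for *Rps6* and 0.01 for *Rpl11*. With correction for principal transcript length they were 0.12 for *Rpl15*, 0.11 for *Rps15a*, 0.07 for *Rps27*, 0.02 for *Rpl36al*, 0.00 for *Rpl36a*, 0.07 for *Rps6*, 0.07 for *Rpl11* and 0.01 for *Rps19*. GC correction gave 0.02 for *Rps6* and the sex covariate -0.01 for *Rpl31*. Leaving out 1 retina gave *Rpl31* -0.07 without YR613 and -0.06 without YR714, and *Rpl15* 0.03, *Rps15a* 0.00 and *Rps27* 0.03 without YR615. Over all retinas left out in turn, *Rpl31* ranged from -0.07 to 0.15 and *Rps27* from -0.17 to 0.03. With sex as a covariate (2 males and 1 female among the controls, 1 male and 2 females among the *Yap* cKO mice), the median was -0.26 and 0 members were called. In that fit, 0.652% of all tested genes and 1% of genes of like exonic length were called lower. No paired analysis was possible because the animals carry codes only and the replicate numbers were given in accession order.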
